A study of Mus musculus with 13 samples.

Results

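AEBP2 was found by ChIP-seq, together with H3K27me3, at 521 regions of the mESC genome that lay away from the start of every annotated protein-coding gene. These distal regions were selected on the peak lists themselves. AEBP2 peaks of the 2 replicates that shared 1 bp or more were merged, and the merged region was kept if it held a peak of each replicate. A region was a member if it also overlapped an H3K27me3 region made in the same way, and if it overlapped no protein-coding gene start of GENCODE vM1 extended by 1 kb on either side. The 521 members were drawn from 2410 AEBP2 regions of both replicates. Of the other AEBP2 regions, 1241 lay at promoters with H3K27me3, 457 at promoters without it and 156 away from promoters without it, and 35 met H3K27me3 of 1 replicate only. The presence of AEBP2 and of H3K27me3 at the members, their peak scores and their distance from gene starts beyond the limit follow from this choice and are given as a description.

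AEBP2 is an accessory subunit of the Polycomb repressive complex PRC2, which methylates lysine 27 of histone H3. In ESCs the mark covers the promoters of many silent developmental regulators, most of which lie in CpG islands, that is, stretches of DNA rich in CG dinucleotides. CpG islands also occur inside genes and between them, where they can mark further start sites of the same gene, starts of non-coding RNAs or no annotated start at all.

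All samples used here came from wild-type mESCs, which the labels describe as a 129/1 XY ES cell line, grown in serum with LIF. Endogenous AEBP2 and H3K27me3 were each profiled in 2 replicates, with an antibody that the labels give as anti-H3K27 and the study as H3K27me3. FS2-AEBP2, a full-length AEBP2 with an N-terminal Flag and StrepII tag, was precipitated through the tag in 1 sample, under another protocol. It was expressed from a plasmid (pCAG), in E14 mESCs according to the methods, whereas the labels name the 129/1 line. The input, SUZ12 and AEBP2 KO samples were not analysed here. The 5 peak lists held between 2877 and 14112 peaks on chromosomes 1 to 19, X and Y. Their scores have no stated scale and are compared only within a list, and the depth behind them is unknown. The AEBP2 list of replicate 2 was longer than that of replicate 1, with 6779 against 2877 peaks. Of 10 promoters of mESC identity genes none had H3K27me3 or AEBP2 in both replicates, whereas of 10 promoters of other lineages 10 had H3K27me3 and 9 had AEBP2.

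A small group of members lay in repeated DNA, where a read cannot be assigned to a unique position. In 10 members (1.92%) the 32-base stretches sampled along the region occurred more than once in the genome. Of these, 7 lay in the array of 5S ribosomal RNA genes on chromosome 8, between 126062686 and 126147645, and their sampled stretches had 38 to 50 copies. Their H3K27me3 scores in replicate 2 ran from 41 to 106, and 6 of the 10 highest peaks of that list fell in the array, against none of the 10 highest of replicate 1. Only 1 of the 7 held an FS2-AEBP2 peak, with a score of 8. The remaining repeated members lay nearest the starts of Gm3591, Zfp345 and Ezh2. Results were computed with all 521 members and again with the 511 others.

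A set of 6 windows of 300 bp is shown, the CpG-densest of their members, because their sequence is what the members have in common with promoter CpG islands. They come from the members with the highest AEBP2 scores, the most distant ones and the one with the highest FS2-AEBP2 score whose window met no untranslated or non-coding exon. All are from mm9, read on the plus strand, with each CG dinucleotide in capitals.
Nfix intron, chr8:87308449-87308748: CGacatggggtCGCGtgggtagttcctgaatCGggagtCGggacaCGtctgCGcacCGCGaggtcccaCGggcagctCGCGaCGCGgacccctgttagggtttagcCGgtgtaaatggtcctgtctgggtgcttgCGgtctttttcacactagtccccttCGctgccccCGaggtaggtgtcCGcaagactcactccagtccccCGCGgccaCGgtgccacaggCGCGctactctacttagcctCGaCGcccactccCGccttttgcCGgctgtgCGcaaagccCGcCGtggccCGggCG
Nr2f2 intron, chr7:77505923-77506222: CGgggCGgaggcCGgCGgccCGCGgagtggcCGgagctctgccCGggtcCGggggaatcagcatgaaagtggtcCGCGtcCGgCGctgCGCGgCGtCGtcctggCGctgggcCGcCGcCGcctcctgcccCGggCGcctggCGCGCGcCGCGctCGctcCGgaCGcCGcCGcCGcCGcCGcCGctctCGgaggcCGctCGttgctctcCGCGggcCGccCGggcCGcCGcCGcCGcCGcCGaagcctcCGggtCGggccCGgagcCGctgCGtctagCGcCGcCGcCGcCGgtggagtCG
C530008M17Rik coding exon, in the member nearest Aasdh, chr5:77286995-77287294: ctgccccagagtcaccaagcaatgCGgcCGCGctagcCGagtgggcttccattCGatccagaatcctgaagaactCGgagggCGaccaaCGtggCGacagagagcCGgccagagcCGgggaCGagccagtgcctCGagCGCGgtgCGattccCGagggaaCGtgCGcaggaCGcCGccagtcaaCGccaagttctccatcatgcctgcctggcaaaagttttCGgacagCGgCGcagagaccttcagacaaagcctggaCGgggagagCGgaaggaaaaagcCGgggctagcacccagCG
upstream of Chrm3, chr13:10359606-10359905: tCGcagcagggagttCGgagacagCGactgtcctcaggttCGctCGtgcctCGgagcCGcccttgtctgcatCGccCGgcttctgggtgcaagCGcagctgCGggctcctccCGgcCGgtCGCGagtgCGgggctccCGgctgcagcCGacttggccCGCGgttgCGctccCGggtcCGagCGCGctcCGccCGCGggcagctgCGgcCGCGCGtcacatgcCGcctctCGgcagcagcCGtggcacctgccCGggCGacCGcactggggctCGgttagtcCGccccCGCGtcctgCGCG
Ctnnd2 coding exon, chr15:30576512-30576811: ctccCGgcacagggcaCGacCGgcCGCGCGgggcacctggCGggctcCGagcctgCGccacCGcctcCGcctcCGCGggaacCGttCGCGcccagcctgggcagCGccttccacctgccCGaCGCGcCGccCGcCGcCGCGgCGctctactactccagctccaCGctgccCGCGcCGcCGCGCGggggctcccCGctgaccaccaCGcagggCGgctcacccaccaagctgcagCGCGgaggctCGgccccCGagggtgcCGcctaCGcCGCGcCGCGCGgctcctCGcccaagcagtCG
upstream of Meis2, chr2:115901735-115902034: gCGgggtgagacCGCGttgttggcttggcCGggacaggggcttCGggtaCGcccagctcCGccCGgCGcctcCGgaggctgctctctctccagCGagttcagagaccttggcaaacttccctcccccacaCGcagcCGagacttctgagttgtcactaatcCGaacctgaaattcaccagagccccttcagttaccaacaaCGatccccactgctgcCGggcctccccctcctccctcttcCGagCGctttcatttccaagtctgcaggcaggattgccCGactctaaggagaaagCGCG
The windows held between 21 CpG at Meis2 and 61 CpG in the Nr2f2 intron, and their GC content ran from 62.0% to 83.3%. The window upstream of Chrm3 lay within the gene body of Gm16950 and that upstream of Meis2 within G630016G05Rik, in neither case in an annotated exon.

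Most members held CpG-rich sequence, as did most AEBP2 regions of both replicates. A CpG-island-like window was 500 bp with 55% GC or more in which CpG reached 0.65 of the number expected from base composition. Passing windows near each other were joined, and a region held one if it overlapped the joined stretch by 1 bp or more. This was so for 477 of 521 members (91.6%, 95% Wilson interval 88.9 to 93.6). Among all 2410 AEBP2 regions the share was 93.8%. It was 99.0% at promoters with H3K27me3, and the difference, members minus promoters, was -7.40 percentage points (Newcombe interval -10.1 to -5.18). Distal AEBP2 regions without H3K27me3 held such a window in 75 of 156 cases (48.1%), which was 43.5 points below the members. The 1795 distal H3K27me3 regions of both replicates that met no AEBP2 peak held one in 23.2%, 68.3 points below (interval 65.0 to 71.1). The members themselves had a median length of 2626 bp, against 3001 bp at promoters with H3K27me3, 636 bp for the distal AEBP2 regions without the mark and 3646 bp for the distal H3K27me3 regions without AEBP2. Length was not matched in these comparisons, in which an overlap of 1 bp sufficed. Intervals here and below cover counting error over regions, not differences between experiments.

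In the 1 kb around their centre the members had a median of 57 CpG, with quartiles of 35 and 78. The median was 67 at promoters with H3K27me3, 38.5 in distal AEBP2 regions without the mark and 12 in distal H3K27me3 regions without AEBP2. The observed to expected CpG ratio of the same stretch had medians of 0.65, 0.71, 0.63 and 0.21 in that order. Most distal AEBP2 regions without the mark were shorter than this 1 kb, and the order depended on the stretch used. Over the whole of each region the ratio had medians of 0.55, 0.62, 0.70 and 0.23. The median CpG per 100 bp was then 4.45 in the members and 4.82 in distal AEBP2 regions without the mark. The islands did not fill the members, since the CpG-island-like part took up a median of 48.0% of a member, with quartiles of 28.0% and 70.1%. The view from the islands was different. Of 20675 CpG-island-like regions in the genome, 9360 lay away from protein-coding gene starts, and 590 of these (6.30%) overlapped a member. Of the 2222 distal islands within H3K27me3 of both replicates, 586 (26.4%) overlapped a member.

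**Figure D1:**
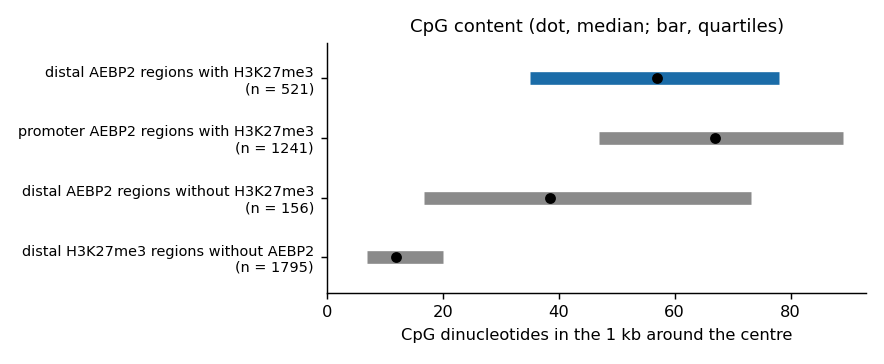
CG dinucleotides in the 1 kb around the centre of each region, for the 521 members and for 3 other groups of regions; dots are medians and bars run between the quartiles. In this 1 kb the members reach a median of 57 CpG, between the promoters at 67 and the distal regions that carry AEBP2 or H3K27me3 alone. Over the whole of each region, not drawn here, CpG per 100 bp is higher in distal AEBP2 regions without H3K27me3 than in the members.

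Short motifs were searched on both strands of the same 1 kb. GCGCGC occurred in 47.0% of members and 59.1% of promoter regions with H3K27me3, a difference of -12.0 points (interval -17.1 to -6.94), and in 55.2% of all AEBP2 regions. GAGAGAG, a repeat of the GAGA type, was found in 34.7% and 35.1% of the same groups and in 32.9% of all AEBP2 regions. The E-box CACGTG, recognised by bHLH proteins, was found in 18.8% of members and 14.9% of promoter regions (difference 3.90, interval 0.145 to 7.94), and in 17.0% of all AEBP2 regions. TCTCGCGA, a motif of active CpG island promoters, was in 4 members (0.768%) and in 0.806% of promoter regions, against 2.70% of all AEBP2 regions. No correction was made for the 4 motifs searched.

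FS2-AEBP2 was not used to choose the members and gives a separate readout of the same protein. A peak of it overlapped 376 of 521 members (72.2%, interval 68.2 to 75.8), against 59.1% of all AEBP2 regions of both replicates. The share was 78.4% at promoters with H3K27me3 (973 of 1241), and the difference, members minus promoters, was -6.24 points (interval -10.8 to -1.86). Without the regions of repeated sequence the difference was -5.08. In distal AEBP2 regions without H3K27me3 the tagged protein was found in 41 of 156 (26.3%), which was 45.9 points below the members (interval 37.5 to 53.2). Length was not matched in this comparison, and most of the 156 regions were short, with an upper quartile of 927 bp. Among members under 1 kb, 9 of 45 (20%) held an FS2-AEBP2 peak. Whether the gap goes with H3K27me3 or with length was not tested. In distal H3K27me3 regions without AEBP2 the tagged protein was found in 25 of 1795 (1.39%). With 1 FS2-AEBP2 sample, none of these differences has a replicate check.

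Within classes of like length the difference from promoters had intervals that included 0, and it was below 0 in each class under 8 kb. FS2-AEBP2 was found in 9 of 45 members under 1 kb (20%) and in 15 of 47 promoter regions of that length (31.9%, difference -11.9, interval -28.8 to 6.08). From 1 to 2 kb the shares were 50.4% and 50.5% (difference -0.13, interval -10.7 to 10.4), and from 2 to 4 kb they were 80.3% and 81.4% (difference -1.17, interval -7.70 to 4.77). From 4 to 8 kb they were 95.4% and 97.2% (difference -1.83, interval -7.71 to 2.01). All 23 members of 8 kb or more held an FS2-AEBP2 peak, as did all 164 promoter regions of that length. With few regions under 1 kb, the class intervals do not show that the groups are alike. The tagged protein was found in few short members and in nearly all long ones, and the same held at promoters.

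**Figure D2:**
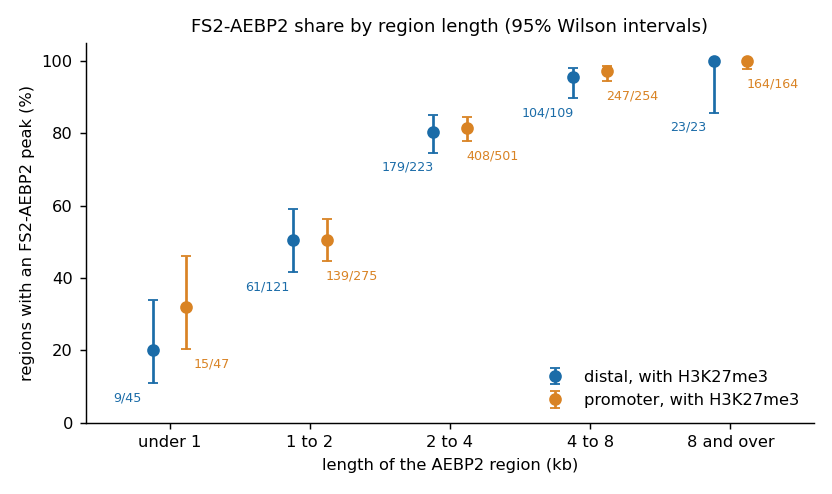
Share of AEBP2 regions with H3K27me3 that hold an FS2-AEBP2 peak (y axis, percent) by length of the region in kb (x axis), for the members (blue) and promoter regions (orange), with 95% Wilson intervals and the number of regions with a peak out of all. Both rise together from 20% and 31.9% under 1 kb to 100% at 8 kb or more.

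Within the members, the share with FS2-AEBP2 went up with the rank of the AEBP2 peaks. Of the members whose mean score percentile over both AEBP2 lists was up to 25, 13 of 31 held an FS2-AEBP2 peak (41.9%). The share was 57.1% between 25 and 50, 75.4% between 50 and 75, and 96.6% (113 of 117) above 75. The median length of the members went up over the same classes, from 1584 bp to 4554 bp, so score and length cannot be told apart here. The 376 members met 483 FS2-AEBP2 peaks, 8 of which reached more than 1 member. In 19 of the 376 the peak also reached within 1 kb of a protein-coding gene start. Members with a CpG-island-like window held FS2-AEBP2 in 73.8% of cases (352 of 477) and those without in 54.5% (24 of 44), a difference of 19.2 points (interval 4.89 to 34.2). Their median lengths were 2713 and 1821 bp and the medians of their mean score percentile 59.5 and 40.0. A part of CpG content in this difference therefore cannot be told apart from length or score. The shares by distance from a gene start had overlapping intervals, at 72.8% up to 5 kb, 74.5% from 5 to 20 kb, 68.9% from 20 to 100 kb and 72.9% beyond 100 kb.

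The member with the highest AEBP2 scores had no FS2-AEBP2 peak. It was a region of 987 bp at chr3:66789181-66790167, 3488 bp upstream of Shox2, a homeobox gene of limb and heart development, and its centre lay in an untranslated exon of Rsrc1. The start of another transcript of Rsrc1 lay within 1 kb of the region. Its H3K27me3 region ended inside it, at position 66789589. The member scored 47 and 77 in the AEBP2 replicates and 28 and 33 in the H3K27me3 replicates. It was 1 of 4 members above percentile 75 without the tagged protein. The others lay nearest Slc10a4, nearest Cbfa2t3 and, in the 5S array, nearest Rhou.

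The next members in rank were long regions with FS2-AEBP2. At Lhx2, a LIM homeobox gene of forebrain and eye development, the member was 18516 bp long, lay inside the gene and scored 29 and 41 for AEBP2, 22 and 37 for H3K27me3 and 75 for FS2-AEBP2. At Nfix, which encodes a nuclear factor I protein of muscle and brain, the longest of all members spanned 21379 bp of the gene body, from which the first window above was taken. It scored 22 and 68 for AEBP2, 39 and 46 for H3K27me3 and 93 for FS2-AEBP2. The members at Lhx2 and Nfix each held, within 1 kb, the start of another transcript of that gene. A member of 7287 bp on chromosome 5, which scored 21 and 38 for AEBP2 and 42 for FS2-AEBP2, lay 102947 bp from the nearest protein-coding gene start, that of 1700013N18Rik. It held a start of Gfi1, which encodes a zinc finger repressor of blood cell development and is listed in GENCODE vM1 as a processed transcript. A member of 5191 bp, nearest the start of Supt3h, held the start of another transcript of Runx2, the regulator of bone formation, and scored 19 and 48 for AEBP2 and 29 for FS2-AEBP2.

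The members with the highest FS2-AEBP2 scores are given next. The 4787 bp member upstream of Meis2, a homeobox gene, scored 10 and 17 for AEBP2 and 97 for FS2-AEBP2, which was the joint highest FS2-AEBP2 score of all members with the one inside Otp, a homeobox gene of the hypothalamus, at 20 and 36 for AEBP2. The member inside Cdkn2a, the locus of cell-cycle inhibitors, scored 10 and 29 for AEBP2 and 86 for FS2-AEBP2. The one upstream of Vax2, a homeobox gene of the ventral eye, was 778 bp long and scored 6 in both AEBP2 replicates. Its FS2-AEBP2 score of 85 belonged to a peak of 18353 bp that also covered another member nearest Vax2, so the score is that of the wider peak.

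**Figure D3:**
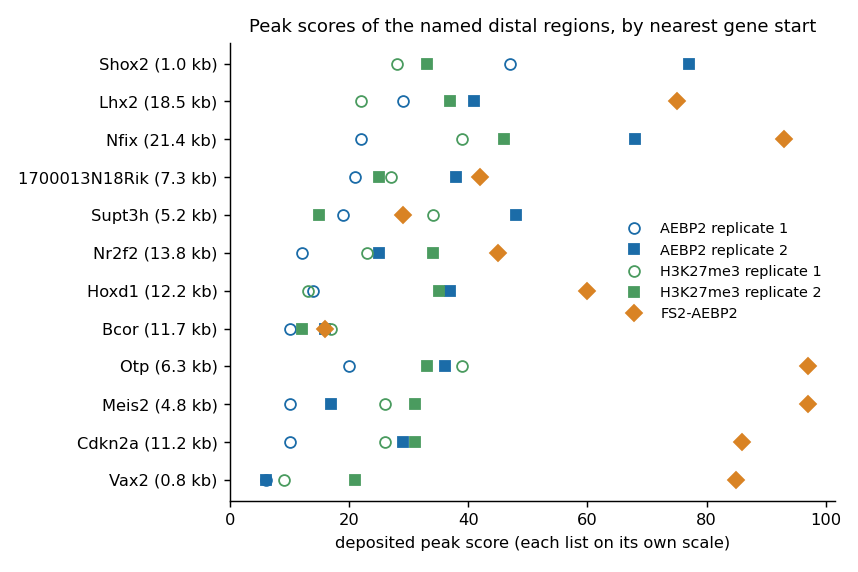
Deposited peak scores (x axis, each list on its own scale) in each of the 5 lists for the members with the highest AEBP2 score, the longest and those with the highest FS2-AEBP2 score, labelled by the nearest protein-coding gene start and the length in kb. The region nearest Shox2 has the highest AEBP2 scores, 47 and 77, and no FS2-AEBP2 score.

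The members were spread over a wide range of distances, with a median of 13701 bp to the nearest protein-coding gene start. The distance was up to 5 kb in 125 members, 5 to 20 kb in 184, 20 to 100 kb in 164 and over 100 kb in 48. The 3 members nearest the limit lay 1039 bp from Pmp22, 1059 bp from Pcdha3 and 1070 bp from Rbpjl, with AEBP2 scores of 4 and 5, 10 and 8, and 3 and 14. Just inside it were promoter regions 982 bp from Dlx4, 965 bp from Tbx3 and 963 bp from Sdk2, with AEBP2 scores of 3 and 13, 14 and 15, and 3 and 7. The centre of a member lay in an intron of a protein-coding gene in 158 cases, in a coding exon in 105, in an untranslated exon in 43, in another exon in 6 and between genes in 209. Relative to the gene with the nearest start, 217 members lay inside it, 194 upstream and 110 downstream.

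**Figure D4:**
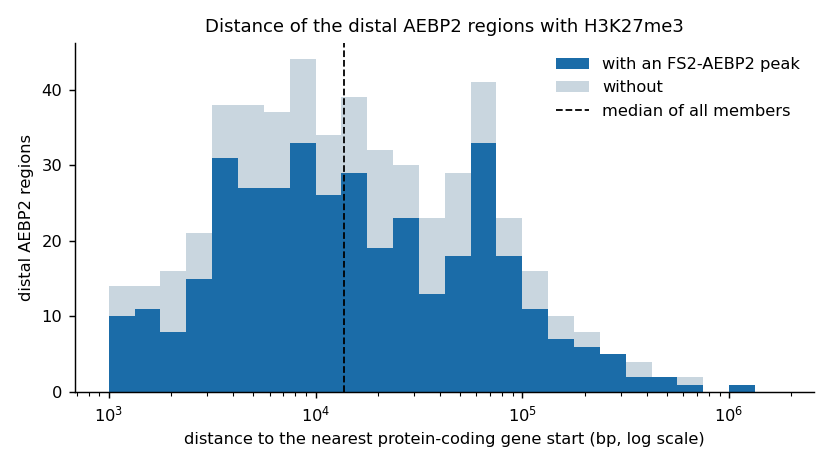
Number of members (y axis) by distance to the nearest protein-coding gene start in bp (x axis, log scale), split into those with and without an FS2-AEBP2 peak; the dashed line is the median of 13701 bp. Regions with the tagged protein occur over the whole range of distances.

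The member farthest from a gene start, in an intron of Ptprd, a receptor tyrosine phosphatase of synapses, lay 1170308 bp from it and scored 7 and 24 for AEBP2 and 8 for FS2-AEBP2. The member inside Opcml, a cell adhesion gene of neurons, had AEBP2 scores of 5 and 4 and no FS2-AEBP2 peak. The member 479669 bp upstream of Chrm3, a muscarinic acetylcholine receptor, scored 13 and 18 for AEBP2 and 22 for FS2-AEBP2, and it held the start of the non-coding transcript Gm16950. The member inside Ctnnd2, which encodes a catenin of neurons, scored 4 and 8 for AEBP2 and 3 for FS2-AEBP2. Those at Ptprd and Opcml held the start of another transcript of the gene in which they lay.

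Distance from a gene start was not distance from every start. Of 521 members, 209 (40.1%, interval 36.0 to 44.4) held, within 1 kb, the start of another annotated transcript. The share was 27.6% in distal AEBP2 regions without H3K27me3 (difference 12.6, interval 4.00 to 20.3) and 18.1% in distal H3K27me3 regions without AEBP2 (difference 22.1, interval 17.5 to 26.7). Length was not matched here, with medians of 2626 bp in the members and 636 and 3646 bp in these groups. Among all AEBP2 regions, promoters included, any transcript start was met in 82.1%. In 151 members the start was that of another transcript of a protein-coding gene, and in 107 of these it was the gene with the nearest start. In 74 members it was the start of a gene of another type, and 16 had both. The other gene types were lincRNA in 30 members, processed transcript in 25, miRNA in 11, pseudogene in 8, rRNA in 7 and snRNA in 1. Of 87 such gene symbols 44 were matched by name in RefSeq, which lists 6 of them as protein coding. These are Gfi1, Rassf10, Kctd12, Kbtbd13, Tdrd5 and Gm13889, at 6 members. A CpG-island-like window was found in 96.2% of members with another start and in 88.5% of those without (difference 7.71, interval 3.01 to 12.1), and FS2-AEBP2 in 69.4% and 74.0% (difference -4.66, interval -12.6 to 3.13).

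The H3K27me3 around the members followed 2 arrangements. In 195 members (37.4%, interval 33.4 to 41.7) the H3K27me3 region also reached a protein-coding gene start, and in 134 of these it held a promoter AEBP2 region as well. In the other 326 the H3K27me3 region met no such start. The members fell in 465 H3K27me3 regions, 160 with a gene start and 305 without, and 338 members were the only AEBP2 region in theirs. FS2-AEBP2 was found in 79.0% of members whose H3K27me3 region held a gene start and in 68.1% of the others (difference 10.9, interval 2.98 to 18.2). The former were longer, with a median of 3039 against 2413 bp, and length was not matched. A CpG-island-like window was found in 85.1% of the former and 95.4% of the latter (difference -10.3, interval -16.2 to -5.10). Neither another transcript start nor a gene start in the H3K27me3 region was found for 180 members (34.5%).

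Both arrangements were seen at loci with several members. At Nr2f2, an orphan nuclear receptor of venous and atrial development, an H3K27me3 region of 52513 bp held 3 members and 1 promoter AEBP2 region, with 7 FS2-AEBP2 peaks. The members there were 13751, 8792 and 9105 bp long and scored 12 and 25, 11 and 11, and 18 and 49 for AEBP2. A pair of further members lay in a separate H3K27me3 region downstream. At the miRNA gene Mir9-3 an H3K27me3 region of 23890 bp with no protein-coding gene start held 4 members, 2 FS2-AEBP2 peaks and 5 CpG-island-like regions. Upstream of Chrm3 an H3K27me3 region of 7649 bp held 1 member, 1 FS2-AEBP2 peak and 1 CpG-island-like region. The largest number of members in 1 H3K27me3 region was 5, in the gamma protocadherin cluster on chromosome 18, where 8 members had Pcdhgc5 as the nearest start and 7 of them held FS2-AEBP2. In all, 443 genes were nearest to a member, 391 of them to exactly 1 member.

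**Figure D5:**
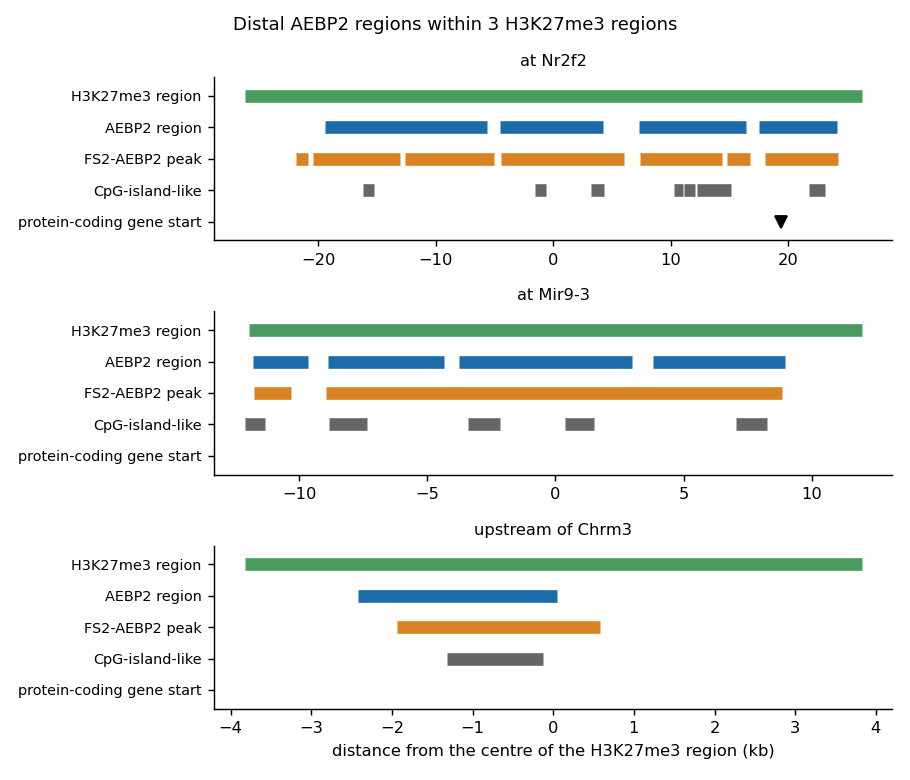
H3K27me3 regions, AEBP2 regions, FS2-AEBP2 peaks, CpG-island-like regions and protein-coding gene starts at 3 loci, by distance in kb from the centre of the H3K27me3 region. At Nr2f2, 3 members and 1 promoter region share 1 H3K27me3 region, whereas those at Mir9-3 and upstream of Chrm3 hold no protein-coding gene start.

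Hairpins of miRNAs, matched by their RefSeq sequence, lay in 8 members (1.54%, interval 0.780 to 3.0), against 0.788% of all AEBP2 regions and 0.806% of promoter regions with H3K27me3. GENCODE vM1 lists miRNA starts within 1 kb of 11 members, these 8 among them, and no hairpin was matched in the other 3, at Mir193b, Mir124a-3 and AL603708.1. Mature sequences from RefSeq (GRCm38.p6) are shown for 6 arms, as examples from members whose H3K27me3 region held no protein-coding gene start. They include both arms of miR-9, which Mir9-1 and Mir9-3 share. Capitals mark the seed, bases 2 to 8.
miR-9-5p: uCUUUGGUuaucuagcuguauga
miR-9-3p: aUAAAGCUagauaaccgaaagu
miR-9b-5p: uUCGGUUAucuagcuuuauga
miR-129-5p: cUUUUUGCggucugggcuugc
miR-193a-3p: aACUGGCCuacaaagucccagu
miR-203-3p: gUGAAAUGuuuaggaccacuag
The miRNA miR-9 acts in neural progenitors, and its 5p arm is identical at Mir9-1 and Mir9-3, each of which lay in a member between genes. The member at Mir9-1, 2192 bp on chromosome 3, scored 17 and 24 for AEBP2, 35 and 23 for H3K27me3 and 46 for FS2-AEBP2. The member at Mir9-3, 6782 bp on chromosome 7, scored 8 and 34 for AEBP2, 38 and 36 for H3K27me3 and 33 for FS2-AEBP2. At Mir129-2 the AEBP2 scores were 6 and 19 with 8 for FS2-AEBP2, and at Mir193a 5 and 16 with 7. At Mir375, a miRNA of pancreatic islets, they were 7 and 22 with 13, and the H3K27me3 region held 2 gene starts. At Mir203, a miRNA of skin, they were 2 and 7 and no FS2-AEBP2 peak was found. Members at Mir1895 and Mir5130 scored 8 and 9, and 8 and 6, and the latter held FS2-AEBP2. All 8 members held sequence that was single in the genome.

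The genes whose start lay nearest to the members belonged often to families of developmental regulators, at a rate close to that of promoters with AEBP2 and H3K27me3. Of 521 members, 159 (30.5%) were nearest to a gene of 12 lists of transcription factor, signalling and neuronal families, against 30.9% of promoter regions (difference -0.42, interval -5.04 to 4.37). The share was 15.4% of distal H3K27me3 regions without AEBP2, and the lists took up 4.37% of all protein-coding genes. FS2-AEBP2 was found at 143 of the 159, against 376 of all 521 members (72.2%). The counts with FS2-AEBP2 given below for single lists are to be read beside that share. They were not matched for region length, and the 159 members lay nearest 111 genes, so members at 1 gene are not independent. The lists were made from gene symbols and are not complete, since members nearest Otp, Esrrb and Bcl11b are in none of them, and 1 of the 2 at Bcl11b, a zinc finger gene, had no FS2-AEBP2 peak. The nearest start is not evidence that a region acts on that gene.

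The list of homeobox genes outside the Hox clusters, which pattern the nervous system and other organs, was nearest to more members than any other of the 12 lists. Its genes were nearest to 51 members at 37 genes, 46 of them with FS2-AEBP2, and it leaves out Otp. At Lhx3, a gene of pituitary and motor neurons, the member inside the gene scored 14 and 34 for AEBP2 and 21 for FS2-AEBP2. A member upstream of Zfhx3 scored 15 and 24 for AEBP2 and 9 for FS2-AEBP2. Hox genes, which set position along the body axis, were nearest to 9 members, all with FS2-AEBP2. The longest of these, 12164 bp, lay 7633 bp upstream of Hoxd1 and scored 14 and 37 for AEBP2 and 60 for FS2-AEBP2. It held, within 1 kb, the start of another transcript of Hoxd3 and starts of genes of another type. Its neighbour of 11486 bp scored 21 and 32 for AEBP2 and shared the same H3K27me3 region of 125590 bp. Upstream of Hoxb13 a member of 9804 bp scored 14 and 19 for AEBP2 and 39 for FS2-AEBP2.

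Genes of the list of zinc finger and nuclear receptor genes, which also takes in Tcfap2b of the AP-2 family with 3 members, were nearest to 22 members, all with FS2-AEBP2. Among them, the member in Nr4a2, a gene of dopaminergic neurons, scored 22 and 22 for AEBP2 and 19 for FS2-AEBP2, and the one upstream of Zic1, a gene of the dorsal neural tube, 16 and 30 with 49. T-box genes were nearest to 11 members, all with FS2-AEBP2, including a member inside Tbx15 at 21 and 13 for AEBP2 and 35 for FS2-AEBP2, and one 27989 bp upstream of Tbx5, a gene of heart and forelimb, at 9 and 21 with 39. Basic helix-loop-helix genes were nearest to 13 members, 10 of them with FS2-AEBP2. The member in Nhlh2 scored 13 and 38 for AEBP2 and 13 for FS2-AEBP2, and that in Tal1, a regulator of blood formation, 13 and 23 with 11. Pax and Fox genes were nearest to 7 members each, of which 6 and 5 held FS2-AEBP2. A member 16904 bp upstream of Pax3, a gene of neural crest and muscle, scored 7 and 40 for AEBP2 and 38 for FS2-AEBP2. The 2 members at Gata4, a gene of heart and endoderm, both met an FS2-AEBP2 score of 27, and the 1 member at a Sox gene, Sox21, one of 43.

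Signalling genes and ion channels were less frequent near the members than near promoter regions. Ligands, receptors and antagonists of the main signalling pathways were nearest to 7 members (1.34%) and to 59 promoter regions (4.75%, difference -3.41, interval -4.91 to -1.66). Ion channels and transmitter receptors were nearest to 11 members (2.11%) and to 61 promoter regions (4.92%, difference -2.80, interval -4.44 to -0.855). The intervals for the other 10 lists included 0, and none is adjusted for their number. The signalling members were mostly at Wnt genes. A member of 9519 bp in Wnt10a scored 13 and 28 for AEBP2, 58 and 40 for H3K27me3 and 40 for FS2-AEBP2, and members in Wnt8b and Wnt3 scored 11 and 20, and 11 and 17, for AEBP2. Axon guidance and adhesion genes were nearest to 18 members at 9 genes, of which 8 members were those of the gamma protocadherins. A member 25776 bp upstream of Robo3, a receptor of commissural axons, scored 8 and 25 for AEBP2 and 37 for FS2-AEBP2.

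The number of members depended most on the AEBP2 lists. With replicate 2 alone, that is without AEBP2 replicate 1, there were 1319 members, of which 44.7% held FS2-AEBP2 and 71.6% a CpG-island-like window. Without AEBP2 replicate 2 there were 763, with 69.3% and 78.8%.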

How the data were processed

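ChIP-seq peak lists of 5 wild-type mESC samples were used out of 13 samples in the labels. The authors called peaks in each sample separately and deposited, for each, a start, an end, inner blocks and a whole-number score, of unstated scale, by which peaks were ranked in their own list alone. The submitters' processing notes name Bowtie, SAMtools, Picard, MACS2 2.0.10.2 and mm9, and thresholds are not given in the sources used here. File names and sample records seem to differ on the replicate number of the H3K27me3 lists, and the records were followed. Of all peaks, 2 of AEBP2 replicate 1 and 13 of H3K27me3 replicate 2 lay outside chromosomes 1 to 19, X and Y and were left out. The H3K27me3 score of replicate 2 is missing for 2 of the 521 members, which met the joined H3K27me3 region outside that list's peaks.

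Gene starts were those of 22367 protein-coding genes of GENCODE vM1. No peak ended beyond the chromosome lengths of the genome sequence used, which does not by itself fix the build. The processing notes name it as mm9. CpG-island-like windows were taken every 10 bp, and passing windows whose starts lay up to 500 bp apart were joined. Repeats were found from exact matches of 5 stretches of 32 bases per region. Shares carry 95% Wilson intervals and differences Newcombe intervals. No test was run, since FS2-AEBP2 has no replicate. Regions were named by fixed rules, namely the 5 with the highest mean AEBP2 percentile, the 5 longest, the 5 farthest, the 5 with the highest FS2-AEBP2 score, the 3 on each side of the promoter limit, up to 4 per gene list, loci with 3 or more members, miRNA hairpins and repeats. Of these regions, 1 is not reported here. The members, gene lists and rules were chosen with earlier results of these data known. The members above percentile 75 without FS2-AEBP2, the other member at Vax2 and those at Esrrb and Bcl11b were named after their values were seen. Overlap, distance and copy counting were tested on simulated lists. Alternatives were wider promoters, other start sites, overlap, score and joining limits, single replicates and, chosen after seeing the data, leaving out repeated sequence. Python 3.11.15, numpy 2.4.6, pandas 2.3.3, scipy 1.17.1 and matplotlib 3.10.9 were used.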

Additional observations from a re-analysis of the deposited data

How the results depend on the processing

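Of 96 recomputed values, 65 stayed within the interval of the reported value (for the number of members, within 1.5 times of it) and 31 moved out. The FS2-AEBP2 share of the members was below that of promoters in each setting, but the interval of the difference included 0 in 2 of them. Where a value moved, the cause was not tested. Leaving out 1 AEBP2 or H3K27me3 replicate gave 523 to 1319 members, FS2-AEBP2 shares of 44.7% to 72.1% and differences from promoters of -9.75 to -5.21, with the extremes of 1319 and 44.7% without AEBP2 replicate 1. The CpG-island-like share was then 71.6% to 91.6%, that with another transcript start 31.3% to 40.0%, that with a gene start in the H3K27me3 region 31.7% to 49.3%, and the median distance 9706 to 13750 bp. With AEBP2 of either replicate there were 1341 members, and the FS2-AEBP2, CpG-island-like and other-start shares were 42.5%, 71.4% and 31.4%, with a difference from promoters of -11.3. With scores at or above each list's median there were 233 members, and these shares were 85.0%, 95.3% and 44.6%. Joining peaks within 1 kb gave a CpG-island-like share of 94.5%, 31.6% with a gene start in the H3K27me3 region and a median distance of 16738 bp, and promoters of 2.5 kb gave 32.4% with such a start. Leaving out start sites of all annotated transcripts gave a difference from promoters of -3.06 (interval -8.61 to 2.00), 312 members, 88.5% CpG-island-like and 42.3% with such a start, and no value for other starts, which are then 0 by construction. Leaving out those of protein-coding genes gave 15.7% with another start. FS2-AEBP2 over at least 50% of the region was found in 46.6% of members, and its peaks of at least median score in 50.3%. Windows of 200 bp with 50% GC and a ratio of 0.6 were found in 98.5%. For regions of 1000 to 2000 bp the difference from promoters was -0.13 (interval -10.7 to 10.4). No paired analysis was possible because the results come from no test. Leaving out the regions of repeated sequence, an alternative chosen after seeing the data, gave 511 members, of which 73.4% held FS2-AEBP2 and 92.0% a CpG-island-like window. Depth is not in the lists, and AEBP2 below the threshold of the caller would be missed in them.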

Other observations

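The members were unevenly spread over the chromosomes. Chromosome 2 held 69 members, or 0.38 per Mb, and chromosome 11 held 42, or 0.345 per Mb. Chromosome X held 6 members, or 0.036 per Mb, among them one of 11740 bp inside Bcor, which encodes a co-repressor, with AEBP2 scores of 10 and 16 and an FS2-AEBP2 score of 16. Chromosome 16 held 7 members, or 0.0712 per Mb. Chromosome Y held 0, and no list used here had a peak on it. Whether the density follows that of CpG islands, of genes or of all AEBP2 regions, or the single X of the XY line, was not tested.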
